A study of Mus musculus with 2 samples.

Results

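The interferon-gamma inducible GTPases described here are 9 mouse genes, chosen by name as spots whose gene name is Gbp2, Gbp3, Gbp5, Gbp6, Gbp7, Irgm1, Irgm2, Igtp or Iigp1, with all probes of each gene kept. They are 9 of 37008 genes named on the arrays and are read by 14 probes of 1 spot each. All 14 probes were well above background on both arrays, and none was saturated or marked as an outlier. Total RNA came from lymph node cells sorted as lacking CD45, the surface antigen of leukocytes. The tumor-draining sample came from the nodes that drained a 4T1 mammary carcinoma, taken from C57BL/6 mice 2 weeks after the carcinoma was placed under the skin of the mammary gland. The 4T1 line itself derives from BALB/c mice, so the labelled host is of another strain. The normal sample came from lymph nodes of mice with no tumor, whose strain the labels do not give separately. Both samples are labelled female, each was run on 1 one-color array, and the sources used here do not give the number of mice behind each.

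Guanylate-binding proteins (GBPs, encoded by the Gbp genes) and immunity-related GTPases (IRGs, encoded by Irgm1, Irgm2, Igtp and Iigp1) are made by many cell types when interferon-gamma binds its receptor. GBPs and effector IRGs such as the Iigp1 product coat the membranes around intracellular parasites and bacteria and help to break them open. The products of Irgm1, Irgm2 and Igtp sit on the cell's own membranes and hold effector IRGs inactive there. In lymph nodes both stromal cells and leukocytes can express these genes.

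On the tumor-draining array, Igtp was 2.02-fold higher, Iigp1 was 5.13-fold lower and the other 7 members were within 2-fold. So 1 of 9 members passed 2-fold upward and 1 of 9 downward, where 11.1% and 15.9% of the 22152 genes measured above background on each array did so. Both member counts are small and near those shares. With 1 array per group there is no test, and a call means only that the 2-fold size was passed. Signals are given before scaling. For differences each array was scaled to its 75th percentile of signal, and differences are log2 values of the tumor-draining array minus those of the normal array. Their median was -0.11 over the members and 0.10 over the 24656 genes detected on either array. The member differences ran from -2.36 for Iigp1 to 1.01 for Igtp, and 8 of 9 were below 0. When the arrays were scaled to spike-in RNA instead, the median of all genes was 0.91, each difference from a gene's brightest probe was higher by 0.81, and every member but Iigp1 had a difference above 0. Under that scaling 45.9% of genes passed 2-fold upward and 8.2% downward, while Igtp and Iigp1 were again the members past 2-fold. In RNA from a whole sort, fewer cells of a type and less RNA per cell cannot be told apart.

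**Figure D1:**
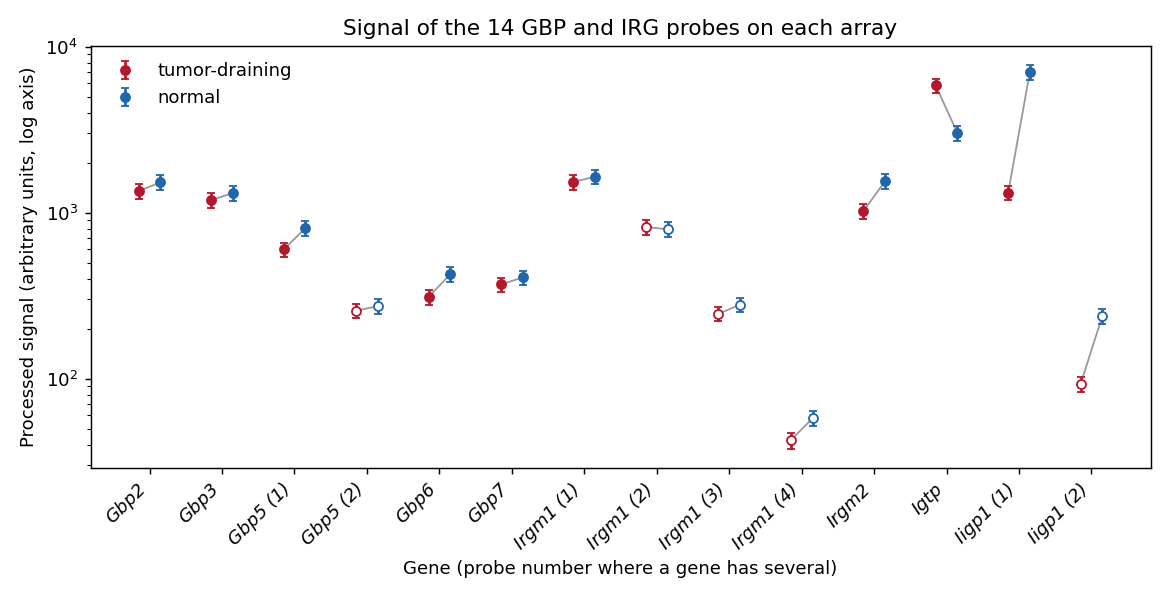
Processed signal of each of the 14 probes (log axis, arbitrary units), with the tumor-draining array in red on the left of each pair and the normal array in blue on the right. Filled points are the brightest probe of a gene, which stands for it, and bars are the scanner software's error of 1 spot. Igtp was at 5832 on the tumor-draining array and 3017 on the normal array, and the brighter Iigp1 probe at 1315 and 7034.

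The 2 arrays differed in the levels of cell type markers as well as in these genes. Markers of stromal cells were above background on both arrays but lower on the tumor-draining one, with at least 2-fold lower values for 12 of 13 fibroblastic reticular, 12 of 12 blood endothelial, 8 of 8 lymphatic endothelial and 8 of 9 pericyte and smooth muscle markers. At least 2-fold higher were 8 of 8 pan-leukocyte genes, 9 of 10 T cell, 7 of 9 B cell and 8 of 8 NK cell markers. The median differences were -1.96 for fibroblastic reticular, -2.88 for blood endothelial, -2.48 for lymphatic endothelial, -2.28 for pericyte and smooth muscle, 1.73 for pan-leukocyte, 2.48 for T cell, 1.80 for B cell and 2.05 for NK cell markers. Of 10 epithelial and mammary carcinoma markers 2 were past 2-fold, both upward, the keratins Krt14 (2.25) and Krt5 (1.92), with a list median of 0.30. Beside these counts, 11.1% of all genes were at least 2-fold higher and 15.9% lower. With spike-in scaling the downward counts fell to 8 (fibroblastic reticular), 10 (blood endothelial), 7 (lymphatic endothelial) and 6 (pericyte and smooth muscle). Medians of these lists were then -1.15, -2.07, -1.67 and -1.47, in that order. All pan-leukocyte, T cell, B cell and NK cell genes listed then passed 2-fold upward, with list medians from 2.54 to 3.28. Under that scaling 45.9% of all genes passed 2-fold upward and 8.2% downward. Summed signals were 119090 on the tumor-draining array and 322513 on the normal array for the 13 fibroblastic reticular markers, and 54893 and 12836 for the 10 T cell markers. None of these markers was below background on either array. Ptprc, which encodes CD45, had a signal of 17432 on the tumor-draining array against 3702 on the normal array, so both samples labelled as stromal held RNA of leukocyte genes. The stromal markers Pdpn, of fibroblastic reticular and lymphatic cells, and Pecam1, of endothelium, had differences of -1.96 and -1.17. The part of these marker differences in the member values was not tested.

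Among the regulatory IRGs, Igtp was higher in the tumor-draining sample and its neighbor Irgm2 was not. Igtp, also called Irgm3, encodes a GTPase of the endoplasmic reticulum and lipid droplets. Its probe, on the plus strand of chromosome 11 at 58020927 to 58020986 in the mm9 build of the array files, had a signal of 5832 on the tumor-draining array and 3017 on the normal array. The difference was 1.01 ± 0.20, or 2.02-fold, where the error is the scanner software's estimate for 1 spot on each array and holds no difference between mice. This was above the differences of 89.2% of genes. It lay at the 2-fold limit, and was 0.95 after quantile normalization, 0.74 after loess and 0.96 both with another background correction and in the authors' deposited table, all short of 2-fold. Irgm2, which encodes a Golgi GTPase, had a signal of 1017 on the tumor-draining array and 1544 on the normal array. Its difference was -0.54 ± 0.20 (0.27 with spike-in scaling), and its probe lies on the plus strand of chromosome 11 at 58036064 to 58036123. The differences of Igtp and Irgm2 lay 1.55 ± 0.29 apart, a gap that a constant scaling of an array does not change and that ranged from 1.43 to 1.55 over 9 alternatives.

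Irgm1, a GTPase of the Golgi and of mitochondria that is required for resistance to mycobacteria in mice, had nearly the same signal on both arrays. Its brightest probe, on the minus strand of chromosome 11 at 48679069 to 48679128, gave 1531 on the tumor-draining array and 1646 on the normal array. The difference of -0.04 ± 0.20 was within the software's error for 1 spot on each array. When scaled to spike-in RNA it was 0.76, beyond that error. Another probe of the gene gave 820.0 on the tumor-draining array and 793 on the normal array, and one more gave 245 on the tumor-draining array and 279 on the normal array. The fourth, annotated to another transcript at 48675495 to 48675554, was dim, with 42.6 on the tumor-draining array and 57.6 on the normal array. The 4 probes had differences from -0.37 to 0.11, with an SD of 0.20 between them. The Igtp difference exceeded that of the brightest Irgm1 probe by 1.06 ± 0.29.

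The promoters of these genes are described for the response element letters they hold. Whether these letters bear on the array values was not tested. RefSeq promoter windows (GRCm38.p6, 250 bases before to 50 after the annotated start) were matched for 7 of 9 members by symbol, with 8 windows in all, since Gbp3 has 2 starts. Gbp6 and Iigp1, the member with the lowest difference, had no matched window. The core of the interferon-stimulated response element, written as GAAA, any 2 bases and GAAA, was searched on both strands. The core of the gamma-activated site, TTCNNNGAA, reads the same on both strands, and the 2 cores overlapped in none of the members' windows. The first was present in a window of all 7 members, against 3.99% of 27025 genes with a window, and the second in 4 of 7 against 9.55%. Both were present for 4 of 7 members, Gbp5, Gbp7, Igtp and Irgm2, against 0.54% of genes. A match is a description of these letters and not a bound site. Printed here are the 250 bases before the start of Igtp (chr11:58199306-58199555, plus strand), Irgm2 (chr11:58214727-58214976, plus strand), Irgm1 (chr11:48871421-48871670, minus strand) and Gbp2 (chr3:142620413-142620662, plus strand), 5′ to 3′, with matches to either core in capitals.
Igtp: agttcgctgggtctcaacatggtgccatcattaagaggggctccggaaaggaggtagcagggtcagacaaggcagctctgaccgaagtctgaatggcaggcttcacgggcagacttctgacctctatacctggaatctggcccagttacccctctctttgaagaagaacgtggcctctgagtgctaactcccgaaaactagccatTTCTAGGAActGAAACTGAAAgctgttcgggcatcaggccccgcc
Irgm2: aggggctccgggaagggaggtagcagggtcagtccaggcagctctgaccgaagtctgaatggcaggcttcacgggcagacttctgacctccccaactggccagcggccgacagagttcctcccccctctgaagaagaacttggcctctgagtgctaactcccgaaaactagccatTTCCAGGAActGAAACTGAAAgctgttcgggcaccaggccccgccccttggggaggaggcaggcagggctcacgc
Irgm1: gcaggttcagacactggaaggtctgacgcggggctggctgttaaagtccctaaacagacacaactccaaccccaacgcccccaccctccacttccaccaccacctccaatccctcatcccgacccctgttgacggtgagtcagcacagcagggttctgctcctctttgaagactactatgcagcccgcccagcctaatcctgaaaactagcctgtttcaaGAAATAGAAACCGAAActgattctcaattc
Gbp2: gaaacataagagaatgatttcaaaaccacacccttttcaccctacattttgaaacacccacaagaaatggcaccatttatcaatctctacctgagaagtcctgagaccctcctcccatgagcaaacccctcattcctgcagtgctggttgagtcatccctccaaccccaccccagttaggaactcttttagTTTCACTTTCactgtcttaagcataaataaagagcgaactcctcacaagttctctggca
The Igtp and Irgm2 windows aligned over 264 bases with 247 identical, 17 mismatched and 7 gap positions, or 91.1% identity, the highest of any pair of different members. In both, the gamma-activated site letters lie just before the response element letters, which start 34 bases before the annotated start of Igtp and 64 bases before that of Irgm2. Irgm1 holds 2 overlapping response element matches, and Gbp2 holds 1 match, 59 bases before the start. Neither of these windows holds the gamma-activated site letters.

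All 5 GBP members were lower on the tumor-draining array by less than 2-fold, and higher by less than 2-fold when scaled to spike-in RNA. Gbp2, whose product is anchored to membranes by a lipid and coats parasite vacuoles, had a signal of 1351 on the tumor-draining array and 1521 on the normal array, a difference of -0.11 ± 0.20. The brightest probes of the 4 members on chromosome 3 lie at 142184779 to 142184838 for Gbp5, 142209379 to 142209438 for Gbp7, 142236072 to 142236131 for Gbp3 and 142300719 to 142300778 for Gbp2, and the files give no exon or UTR for any probe. Gbp3, another vacuole-coating GBP, had 1190.2 on the tumor-draining array and 1312 on the normal array. Gbp7, known for its part in resistance to Toxoplasma in mice, had 369 on the tumor-draining array and 407 on the normal array. Both genes had a difference of -0.08 ± 0.20, and the values of these 3 genes lay within the software's error of 1 spot of no difference.

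Gbp5 and Gbp6 had the lowest differences of the GBP members. Gbp5, which is linked to assembly of the NLRP3 inflammasome, had a signal of 599 on the tumor-draining array and 805 on the normal array, a difference of -0.36 ± 0.20. Its second probe, at 142181426 to 142181485 on chromosome 3, had 256 on the tumor-draining array and 273 on the normal array, a difference of -0.03. The probes therefore differed with an SD of 0.24. Gbp6, the one GBP member on chromosome 5 (105700081 to 105700140, minus strand), had 310.2 on the tumor-draining array and 425 on the normal array, a difference of -0.39 ± 0.20. Between the 5 GBP members the differences had an SD of 0.16. This is smaller than the software's error of a difference (0.20, from 1 spot on each array). It is also smaller than the median SD between probes of a gene (0.27), so their order was not resolved. Replicate spots of a probe differed less, with a median SD of 0.050. Of all genes, 43.6% had a difference below 0 and 73.0% were within 2-fold. Scaled to spike-in RNA the 5 ran from 0.41 to 0.73, all above 0 and all within 2-fold.

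**Figure D2:**
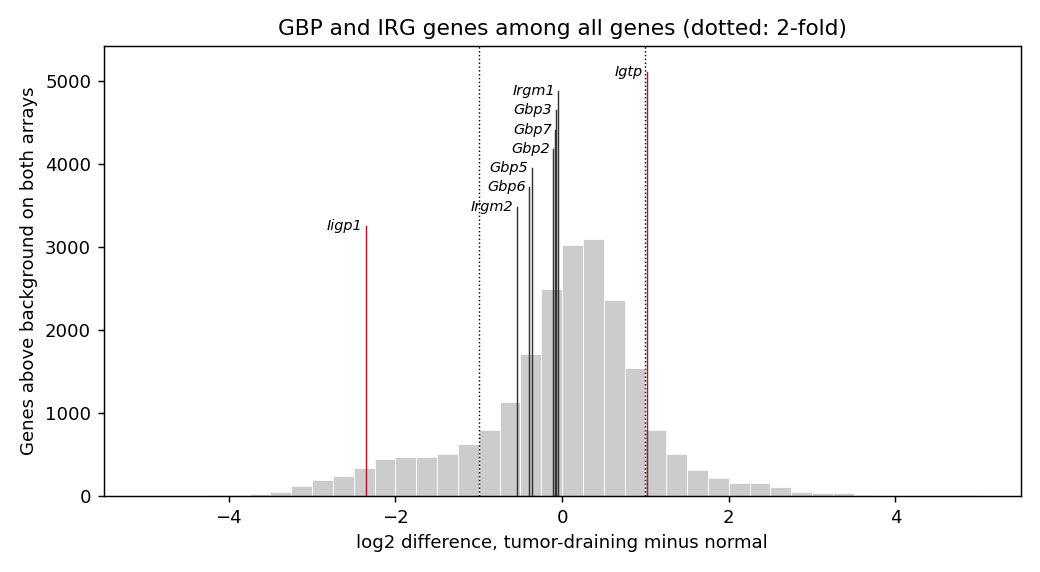
Number of genes detected on both arrays (y axis) by log2 difference, tumor-draining minus normal (x axis, bins of 0.25), with the 9 members as vertical lines. Dotted lines mark 2-fold. The lines from Irgm2 to Irgm1 stand between -0.54 and -0.04, with Iigp1 at -2.36 and Igtp at 1.01. Scaling to spike-in RNA puts those 7 lines above 0.

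Iigp1 was the member with the lowest difference. It encodes Irga6, an effector IRG that loads onto parasite vacuoles. Its brighter probe, on the plus strand of chromosome 18 at 60552153 to 60552212, had a signal of 1315 on the tumor-draining array and 7034 on the normal array. The difference was -2.36 ± 0.20, or 5.13-fold lower, below that of 96.2% of genes. The second probe, annotated to another transcript at 60538211 to 60538270, had 92.7 on the tumor-draining array and 238 on the normal array, a difference of -1.30. Both probes were at least 2-fold lower, with an SD of 0.75 between them and a mean of -1.83. The dimmer probe was at -0.91 with another background correction and -0.49 when scaled to spike-in RNA, both short of 2-fold. The brighter probe was at -1.55 under that scaling and from -2.56 to -2.29 under the other scalings and background settings tried. In the main setting the brighter probe lay between the medians of fibroblastic reticular markers (-1.96) and blood endothelial markers (-2.88). The dimmer probe (-1.30) and the mean of both (-1.83) lay above that range. The part of the marker differences in the Iigp1 values was not tested. The differences of Irgm1 and Iigp1 lay 2.31 ± 0.29 apart, and those of Irgm2 and Iigp1 1.82 ± 0.29. Over 9 alternatives these gaps ran from 1.72 to 2.37 and from 1.29 to 1.87. The errors given hold no spread between probes.

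**Figure D3:**
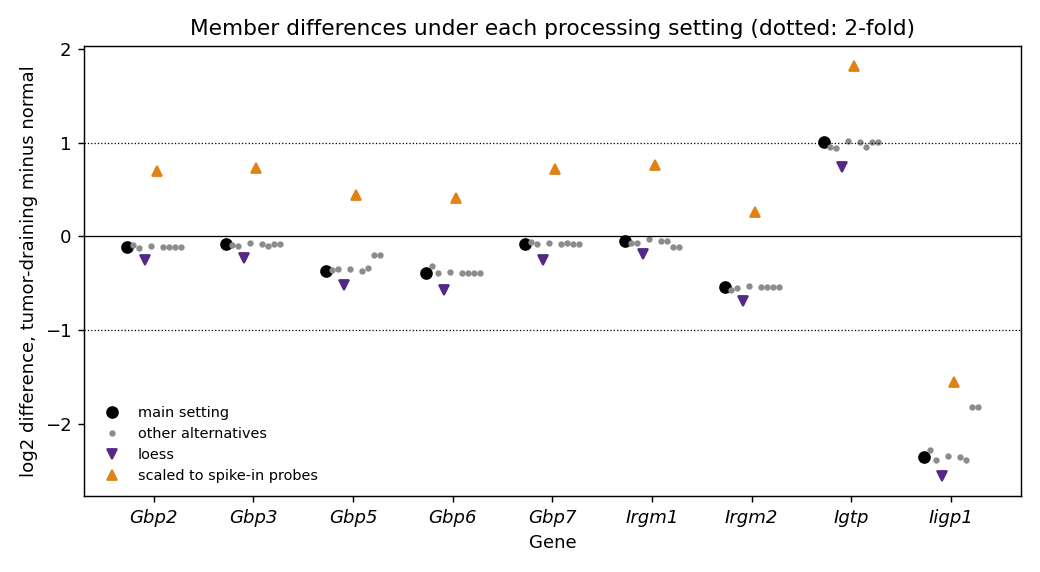
Log2 difference, tumor-draining minus normal, of each member (x axis) in the main setting (black) and 9 alternatives. Scaling to spike-in RNA (orange) raised every member and put 7 that were below 0 in the main setting above 0, while Iigp1 stayed past 2-fold lower in all settings and Igtp lay between 0.74 and 1.82.

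Other genes of the GBP and IRG families and related large GTPases also went both ways. Of 17 measured, 2 were past 2-fold upward and 2 downward, with a median of -0.04. Of all genes 11.1% and 15.9% did so, and both counts are small and near those shares. Gvin1, a very large inducible GTPase, had a signal of 12596 on the tumor-draining array and 4543 on the normal array, a difference of 1.53. Gbp8 was 2.43-fold higher, at 575 on the tumor-draining array and 247 on the normal array, and its 2 probes were at 1.28 and 1.74. The lowest was Gm4951, a relative of Iigp1 on chromosome 18, at 316 on the tumor-draining array and 1271 on the normal array, with its 2 probes at -1.95 and -2.65. Atl1, an atlastin that shapes the endoplasmic reticulum and is a relative of the GBPs, had a difference of -1.43. When scaled to spike-in RNA, 6 of the 17 were past 2-fold upward and 1 downward, against 45.9% and 8.2% of all genes.

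Set in chromosomal order, the GBP genes of chromosome 3 were close together and the other clusters were not. The 5 genes on chromosome 3, from Gbp5 to Gbp2 and including Gbp2b, ran from -0.36 to -0.08. The 6 on chromosome 5 ran from -0.39 for Gbp6 to 1.28 for Gbp8, and the 6 on chromosome 11 from -0.54 for Irgm2 to 1.01 for Igtp. The 4 on chromosome 18 ran from -2.36 for Iigp1 to 0.15, with 2 of 4, Iigp1 and Gm4951, at least 2-fold lower. Of all genes 15.9% were at least 2-fold lower, and a count over 4 genes is small. In the same cluster, Gm4841 had one probe at -0.58 and another at -2.98. Whether probes also read near-identical copies within a cluster was not tested.

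**Figure D4:**
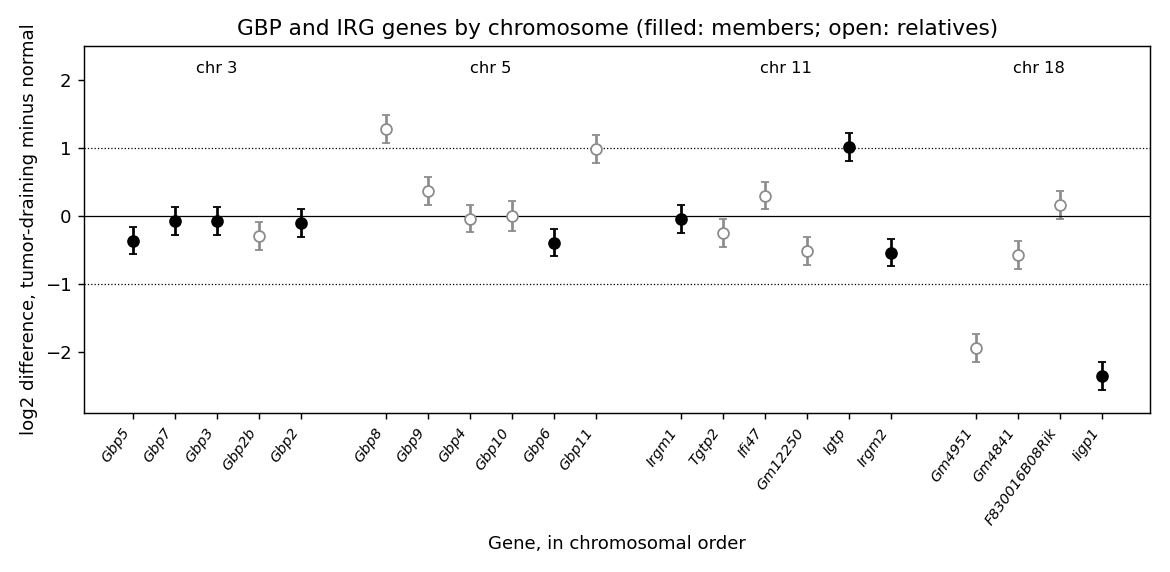
Log2 difference, tumor-draining minus normal (y axis), of the members (filled) and their GBP and IRG relatives (open) in the gene order of chromosomes 3, 5, 11 and 18, with the scanner software's error of 1 spot per array. The chromosome 3 genes lie between -0.36 and -0.08, while 2 of 4 chromosome 18 genes are below -1, as are 15.9% of all genes. Scaling to spike-in RNA raises all points equally and puts the chromosome 3 genes above 0.

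Genes of the ligand and its signalling chain were higher or within 2-fold. Of 12 measured, 3 were at least 2-fold higher and none at least 2-fold lower, with a median of 0.50. Of all genes 11.1% were at least 2-fold higher and 15.9% lower. Ifng, the ligand gene itself, had a signal of 2466 on the tumor-draining array and 557 on the normal array, a 4.62-fold difference. T cells and NK cells make it, and their markers were higher on the same array. The part of this in the Ifng value was not tested. Jak2, a kinase bound to the receptor, had a difference of 1.04, and its second probe one of 0.76, short of 2-fold. The receptor chains Ifngr1 and Ifngr2 had differences of -0.0026 and 0.39, and Irf1, a transcription factor that interferon-gamma induces, had one of -0.08. With spike-in scaling 9 of 12 were at least 2-fold higher, against 45.9% of all genes.

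Other interferon-gamma inducible genes also lay on both sides of 0. Of 23 measured, 4 were past 2-fold upward and 6 downward, with a median of -0.17. Of all genes 11.1% and 15.9% did so. Ciita, the regulator of class II antigen presentation, was the highest at 2.93. B cells also express it, their markers had a median of 1.80, and the part of this in its value was not tested. Nlrc5, the regulator of class I genes, followed at 1.54. Serpina3f, a protease inhibitor, was the lowest, with 922 on the tumor-draining array and 4282 on the normal array, a difference of -2.15. Cxcl10, a chemokine for activated T cells, had 995 on the tumor-draining array and 4307 on the normal array, a difference of -2.05. With spike-in scaling, 8 of 23 were past 2-fold upward and 3 downward, against 45.9% and 8.2% of all genes. Of 19 type I interferon-stimulated genes 1 was past 2-fold upward and 4 downward, with a median of -0.47. Spike-in scaling turned this to 4 upward and 1 downward, with a median of 0.34. The same shares of all genes stand beside these counts. The 19 genes ran from Oasl2 (-2.56) and Rsad2 (-1.45) to Oasl1 (0.81) and Oas3 (2.24). Oas3 was the dimmest of them on each array, at 48.9 on the tumor-draining array and 10.8 on the normal array.

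Genes whose products work with GBPs and IRGs were mostly within 2-fold. So were 73.0% of all genes, with 11.1% at least 2-fold higher and 15.9% lower. Proteins of the autophagy conjugation system direct GBPs and IRGs to their target membranes, and of 11 such genes 9 were within 2-fold and 2 at least 2-fold lower, with a median of -0.14. Relative to all genes this median was -0.24, and 0.12 when the mean over all probes stood for a gene. The lowest were Gabarapl1 (-1.60) and Map1lc3a (-1.03), and the highest Atg16l1 (0.47) and Map1lc3b (0.49). GBPs also promote inflammasome activation, and of 8 genes of that step 6 were within 2-fold and 2 at least 2-fold higher, with a median of 0.56. Relative to all genes this median was 0.46, against 0.15 with normexp background correction and 0.10 over brighter genes only. Aim2, a sensor of cytosolic DNA, had a signal of 1024 on the tumor-draining array and 289 on the normal array, a difference of 1.89. Il1b was the highest at 2.15, with its 3 probes from 0.57 to 2.15. Il18 and Casp4, which encodes the caspase-11 that senses lipopolysaccharide, had the lowest differences at -0.55 and -0.51. With spike-in scaling 4 of the 11 autophagy genes and 5 of the 8 inflammasome genes were at least 2-fold higher, against 45.9% of all genes.

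**Figure D5:**
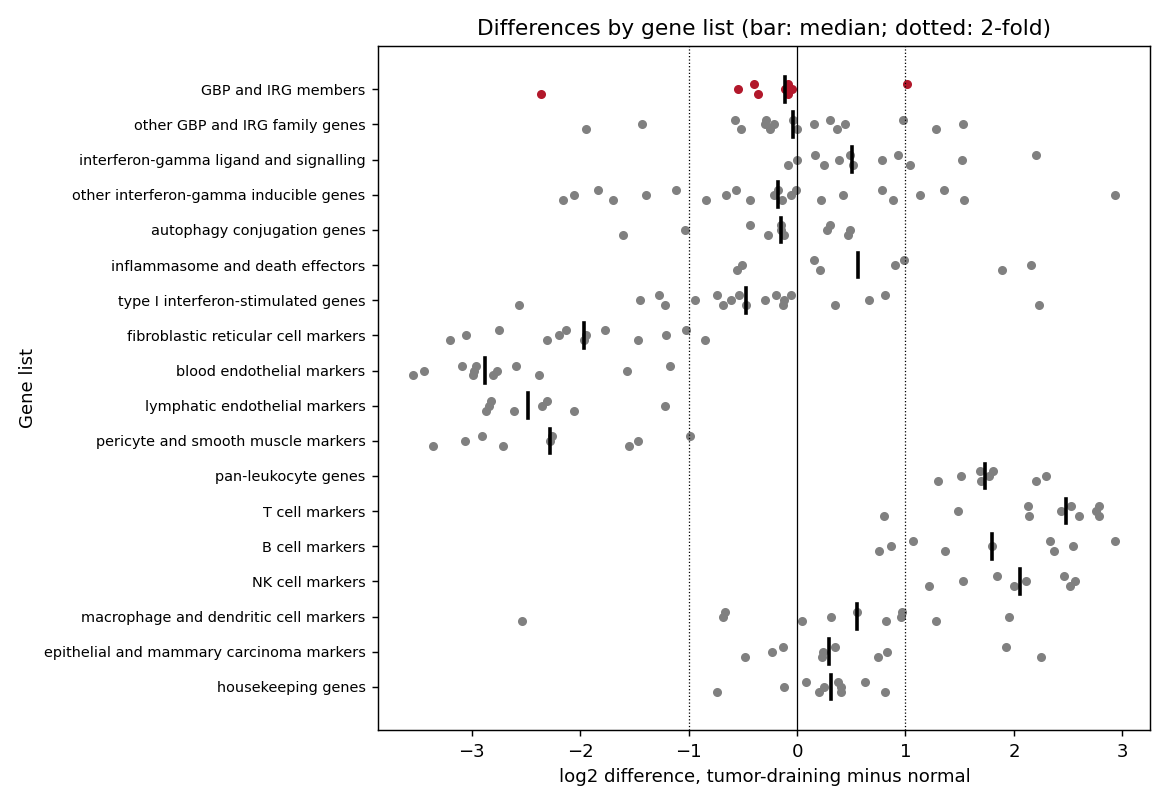
Log2 difference, tumor-draining minus normal (x axis), of each measured gene, by gene list (y axis), with a black bar at the median. The 9 GBP and IRG members (red) have a median of -0.11, between blood endothelial markers at -2.88 and T cell markers at 2.48. Scaling to spike-in RNA moves all points to the right by 0.81 and puts the members' median at 0.70.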

How the data were processed

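RNA of CD45-negative lymph node cells was labelled with Cy3 and read on 1 one-color Agilent mouse array per group, per the labels' protocols. Scanner files were deposited with linear intensities per spot, background-subtracted by Agilent Feature Extraction 12.0.3.1 with probe positions on mm9, per the file headers. Per the submitters' processing notes, version 10.7 and limma were used. A value table on the log2 scale was also deposited, with column medians of 4.86 (tumor-draining) and 4.85 (normal). Each column followed its array's processed log2 signals across probes (r = 0.9999), so its scale is log2, no centering by gene is seen and a one-color array needs no direction, but its normalization is unknown. It served as an alternative.

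Log2 processed signals were reduced by each array's 75th percentile (358 tumor-draining, 374 normal) over 59305 non-control spots. Marked spots were left out, spots of a probe were averaged, and the brightest probe stood for a gene. Above background means that the software marked 50% or more of a probe's spots so. This held for 35570 of 56605 probes on the tumor-draining array and 36783 on the normal array. RefSeq accessions named 32983 probes, current symbols 10221 and synonyms 520, and the rest kept the names in the files. Differences are tumor-draining minus normal, without a test. The number of arrays limits the precision. Replicate spots of 298 probes had a median SD of 0.050 for the log2 difference, and probes of 7599 genes one of 0.27. Neither covers mice. The software's error of member spots was 10.0% to 11.0% of the signal.

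The 9 members and the 18 gene lists were chosen with earlier results of these data known. The rule was to name all members, Ifng, Ifngr1, Ifngr2, Irf1, Ptprc, Pdpn, Pecam1 and the 2 highest and 2 lowest of each list. Marker and housekeeping lists are given by counts and medians instead, apart from Krt5 and Krt14, and Jak2, Gm4841 and the ends of gene clusters were named after their values were seen. 1 gene that the rule names is not reported here. The 10 housekeeping genes were all within 2-fold, with a median of 0.31, but 7 were at least 2-fold higher with spike-in scaling (median 1.12). Of 11 measured macrophage and dendritic cell markers 2 were at least 2-fold higher and 1 lower (median 0.55), against 7 and 1 with spike-in scaling (median 1.36). With that scaling 7 of 10 epithelial markers were at least 2-fold higher. Under it 45.9% of all genes were at least 2-fold higher and 8.2% lower. Alternatives were normexp (offset 50), quantile and loess (span 0.3) normalization, 2 other scalings, 2 probe rules, kept spot marks, 2 filters and the authors' table. Spike-in scaling used probes with a signal under 60000. The sources used here do not say whether equal amounts were added. Work used Python 3.11.15, numpy 2.4.6, pandas 2.3.3, Biopython 1.88, R 4.3.3 and limma 3.58.1.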

Additional observations from a re-analysis of the deposited data

How the results depend on the processing

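The number of members at least 2-fold lower was 1 under all 11 alternatives. The number at least 2-fold higher was 1 in the main setting and 0 with normexp background correction, quantile normalization, loess and the authors' deposited table, where Igtp had differences of 0.96, 0.95, 0.74 and 0.96. In the main setting, the gap of Igtp to the 2-fold limit was smaller than the software's error of a difference (0.20). With loess the gap was larger than that error. The median difference of the members relative to all genes was -0.21 in the main setting and ran from -0.27 to -0.17 over the alternatives. Scaling to spike-in RNA moved the median of all genes by 0.81 and turned the differences of Gbp2, Gbp3, Gbp5, Gbp6, Gbp7, Irgm1 and Irgm2 to values from 0.27 to 0.76. The mean over its probes gave -1.83 for Iigp1 in place of -2.36. Of the other values recomputed, member differences and list medians, 216 moved by less than the median SD between probes of a gene (0.27) and 19 by more, none with a change of direction in a member past 2-fold. Relative to all genes, the median of the autophagy list changed sign with the mean over all probes (0.12 in place of -0.24). That of the housekeeping genes, 0.22, was -0.04 with quantile normalization, -0.05 with loess and -0.03 in the authors' table. Which scaling is nearer to RNA per cell was not tested. No paired analysis was possible because each group has 1 array, and slide could not be fitted as a block for the same reason. No difference between mice or sorts can be estimated from these arrays.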
